A study of Homo sapiens with 4 samples.

Results

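The RUNX transcription factors, their partner CBFB and a set of bone matrix genes were examined in ES-2, a human ovarian clear cell carcinoma line in which YAP1 is fused to MAML2 (the YM fusion). The set was 9 genes, RUNX1, RUNX2, RUNX3, CBFB, BGLAP, SPP1, ALPL, MGP and IBSP, of 19626 genes in the deposited tables. It was chosen by the BGLAP counts of this comparison, which appear after knockdown, so the values of the 9 genes in this comparison are given as a description without a test. Of the 9, 8 were analysed and 4 (RUNX1, RUNX2, CBFB and BGLAP) had an RPKM (reads scaled for transcript length and library size) above 1 in at least 1 library, the limit for testing. IBSP was not analysed here.

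Cells were transduced with pLKO.1 lentivirus carrying a non-targeting control shRNA (shCtl, n = 2 libraries) or shM2-3 (n = 2), which targets a stretch shared by MAML2 and the fusion. All 4 cultures were infected for 8 h on consecutive days and harvested 96 h after the first infection. The design rests on a single hairpin in a single line, so the loss of the fusion cannot be told apart from the loss of MAML2 itself. Libraries held 20051083 to 23978660 estimated counts. MAML2 fell to 36.2% of its shCtl RPKM, from 8.61 and 8.26 in the shCtl libraries to 3.11 and 2.998 in the shM2-3 libraries.

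RUNX proteins bind a short DNA core, and CBFB, which does not bind DNA by itself, stabilizes that contact. RUNX2 is the master factor of osteoblasts, the cells that build bone, whereas RUNX1 and RUNX3 are best known from blood cells and many epithelia. RUNX proteins also bind the WW domains of YAP1, the Hippo pathway coactivator. In osteoblasts RUNX2 drives genes of the mineralizing matrix, among them BGLAP (osteocalcin), SPP1 (osteopontin), IBSP (bone sialoprotein) and ALPL (tissue-nonspecific alkaline phosphatase). MGP (matrix Gla protein) is, like osteocalcin, carboxylated with the help of vitamin K, and restrains calcification of soft tissue.

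BGLAP was listed at 0 counts in each shCtl library and at 84 and 85 counts in the shM2-3 libraries. In RPKM it stood at 5.80 and 6.51 under shM2-3, a mean of 6.15 ± 0.503 (SD, n = 2). The groups did not overlap, and this difference is what led to the choice of the 9 genes. With the listed counts taken as given and a floor of 3 counts in each shCtl library, BGLAP was 24.96-fold higher once scaled to library totals. This is no lower bound, since the counts depend on how reads of shared exons were divided. In bulk RNA, more cells with a transcript and more of the transcript per cell cannot be told apart.

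How reads were divided at this locus bears directly on that value. BGLAP lies on the plus strand of chromosome 1 of hg38 from 156242184 to 156243317 (GENCODE release 44), inside PMF1-BGLAP, an annotated read-through gene that joins the upstream gene PMF1 to BGLAP. The BGLAP mRNA has 4 exons and 506 bases. Exons 2, 3 and 4, which hold 394 of these bases (77.9%), also belong to PMF1-BGLAP transcripts, and the 112 bases of exon 1 are the part that is BGLAP's own. PMF1 shares 0 bases of these exons. The coding stretches of the first 3 exons are shown because they set apart what only BGLAP can give from what both genes give. They read, on the plus strand of hg38:
Exon 1, BGLAP alone, chr1:156242232-156242295: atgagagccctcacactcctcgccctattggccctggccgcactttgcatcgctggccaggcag
Exon 2, shared, chr1:156242553-156242591: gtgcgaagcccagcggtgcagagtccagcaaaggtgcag
Exon 3, shared, chr1:156242762-156242831: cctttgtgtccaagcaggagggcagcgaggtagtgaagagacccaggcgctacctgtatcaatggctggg

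The read-through gene was given counts in every library. Its exons upstream of BGLAP overlap exons of PMF1, so the division of reads with PMF1 also bears on these counts. PMF1-BGLAP had 36 and 45 counts under shCtl and 70 and 67 under shM2-3, so the groups did not overlap. Its log2 fold change was 0.62 (standard error 0.312, adjusted p = 0.0911 by the edgeR quasi-likelihood F test, Benjamini-Hochberg), which missed the threshold of 0.05. PMF1, a kinetochore gene, had 452 and 519 counts under shCtl and 607 and 524 under shM2-3, a log2 fold change of 0.08 ± 0.0937 (standard error), which did not pass the test.

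The shCtl values of BGLAP were not plain zeros but estimates of 1.31e-26 and 1.64e-29 counts. In shM2-3, BGLAP held 54.7% and 56.1% of the summed counts of both genes. How the reads of the shared exons were divided between them was not tested. When both genes were summed, the counts were 36 and 45 under shCtl and 154 and 152 under shM2-3, or 1.79 and 2.19 CPM (counts scaled to library totals) under shCtl and 6.41 and 6.98 CPM under shM2-3. The groups still did not overlap. The summed log2 fold change was 1.78 (standard error 0.242), a 3.42-fold difference, and it lay between 1.64 and 1.93 when each library was left out in turn. So the size of the BGLAP difference depends on the division between both genes, and the sum does not. The division of reads with PMF1, which bears on the sum as well, was not tested. The sum was made after the values had been seen. It also holds the BGLAP counts that chose the set, so its size, standard error and range are a description and no test.

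**Figure D1:**
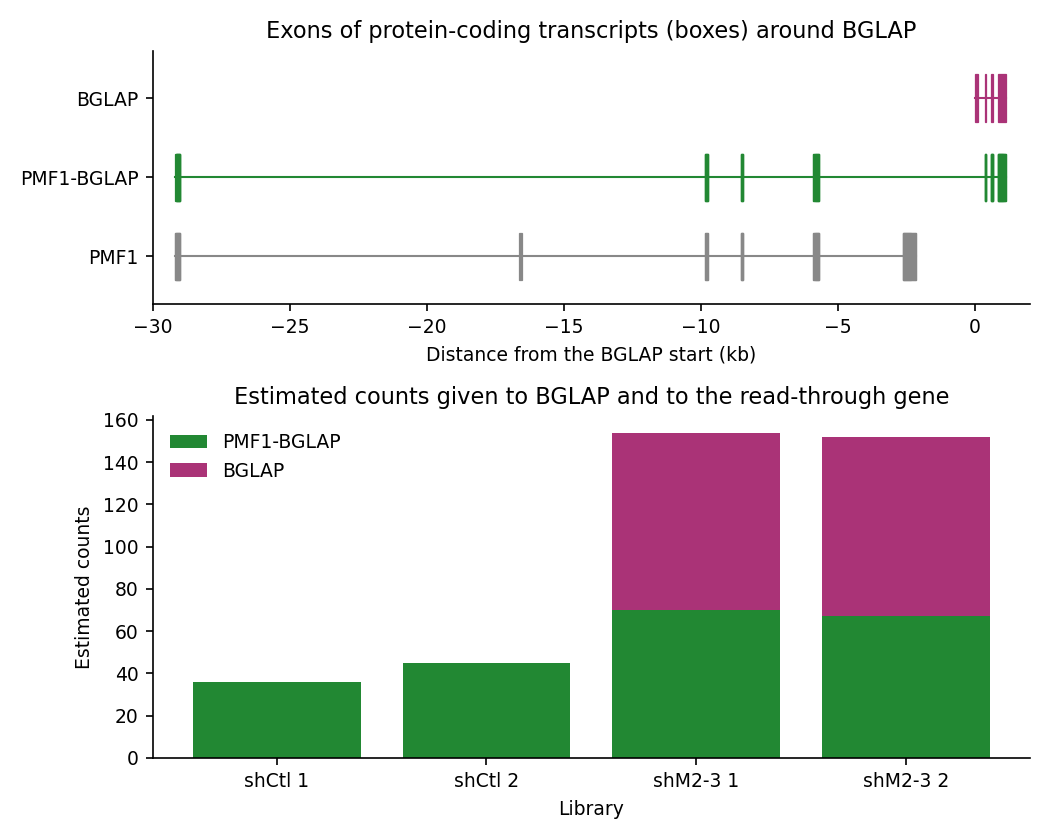
Upper panel, exons of protein-coding transcripts of PMF1, PMF1-BGLAP and BGLAP against distance from the BGLAP start in kilobases. Lower panel, estimated counts per library, not scaled for depth, with the part given to PMF1-BGLAP in green and the part given to BGLAP in purple; the shCtl bars of 36 and 45 counts hold no BGLAP part, and the shM2-3 bars of 154 and 152 hold 84 and 85.

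The genes near BGLAP were read from the same fit. PAQR6, a progestin receptor family gene on the opposite strand from 156243320 to 156248117, ends beside BGLAP and had 20 and 24 counts under shCtl against 108 and 92 under shM2-3. PAQR6 rose by 2.04 on the log2 scale (standard error 0.318, adjusted p = 6.16e-05 by the edgeR quasi-likelihood F test, Benjamini-Hochberg). It passed the limit for testing through its shM2-3 values alone, with an RPKM of 0.356 and 0.420 under shCtl and 1.57 and 1.48 under shM2-3. SLC25A44, a mitochondrial carrier gene upstream of PMF1, rose by 1.20 on the same scale (adjusted p = 1.69e-08, same test and adjustment). SMG5, TMEM79 and GLMP, the other genes tested within 50 kb, had log2 fold changes of 0.20, 0.83 and 0.24, under the limit of 2-fold. The libraries carry no strand, and the part of PAQR6 reads in the BGLAP value was not tested.

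Of all 19626 genes, 20 (0.102%) had 0 rounded counts in each shCtl library and at least 20 in each shM2-3 library, the pattern of BGLAP. This pattern is what chose the set, so the place of BGLAP among the 20 is a description and no test. BGLAP had the highest shM2-3 RPKM of the 20, a value scaled for transcript length. Its counts of 84 and 85 were not the highest. By RPKM it was followed by CSF3, a granulocyte growth factor, with 205 and 190 counts under shM2-3, and by LTB (lymphotoxin beta) with 87 and 88. ISLR, a secreted leucine-rich repeat protein, had 121 and 109, and AGT (angiotensinogen) had 70 and 75. In 1 of the 20, BGLAP, the shCtl value was a near-zero estimate and not an exact 0. Summed with PMF1-BGLAP, its shCtl counts of 36 and 45 lay outside the pattern. The likeness is over 4 libraries and says only that the counts follow the same pattern.

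The sequence upstream of BGLAP is shown because it is the promoter that RUNX2 is known to act on in osteoblasts. The RUNX core was searched as TGTGGT and TGCGGT on both strands in RefSeq windows of 300 bases (250 before to 50 after a gene start, GRCh38.p14). The 250 bases before the BGLAP start, chr1:156241934-156242183 on the plus strand, read as follows, with the core (ACCACA, the reverse complement of TGTGGT, at position -163) in capitals:
BGLAP: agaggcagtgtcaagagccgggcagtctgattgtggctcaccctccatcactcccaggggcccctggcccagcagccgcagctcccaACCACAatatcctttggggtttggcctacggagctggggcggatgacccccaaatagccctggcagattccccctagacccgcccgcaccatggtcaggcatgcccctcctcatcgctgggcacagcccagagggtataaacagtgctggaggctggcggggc

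Windows were found for 7 of the 9 genes, 11 windows in all, since some genes have several starts. A RUNX core in either form was present in 5 of the 11 windows, 1 each of BGLAP, SPP1, ALPL, RUNX2 and RUNX3, and in 19.6% of the 35116 windows of the genome. The RUNX2 window with matches held 5 and the RUNX3 window 2. The SPP1 match, the RUNX2 matches before the gene start and the first RUNX3 match are shown to let the flanks be compared, 30 bases each, with the core at the centre in capitals. The RUNX3 stretch also holds the other RUNX3 core, at position -123, left in lower case:
SPP1, chr4:87975560-87975589, plus strand: ttttttgttttaACCACAaaaccagagggg
RUNX2, chr6:45328127-45328156, plus strand: aggaaaggccttACCACAagccttttgtga
RUNX2, chr6:45328231-45328260, plus strand: gtgaggtcacaaACCACAtgattctgcctc
RUNX3, chr1:24965124-24965153, minus strand: cctggtccctcaACCACAgaaccacaaggc
The core of TEAD factors, the DNA-binding partners of YAP1, was searched as GGAATG on both strands. It was absent from the BGLAP window and present in 1 window each of RUNX1, RUNX2 and RUNX3, against 14.0% of all windows. A match is a run of letters and not a shown binding site.

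RUNX1 (chromosome 21, 34787801 to 36004667, minus strand) had 1880 and 1883 counts under shCtl and 2835 and 2634 under shM2-3. Its RPKM was 10.0 and 9.89 under shCtl and 12.4 and 12.7 under shM2-3. Both shM2-3 libraries were above both shCtl libraries, and the log2 fold change was 0.40 (standard error 0.0477), or 1.32-fold.

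RUNX2 (chromosome 6, 45328157 to 45664349, plus strand) had 1806 and 1765 counts under shCtl and 1912 and 1755 under shM2-3. Its RPKM was 12.7 and 12.2 under shCtl and 10.9997 and 11.2 under shM2-3, so both shM2-3 libraries were slightly below both shCtl libraries. The log2 fold change of RUNX2 was -0.10 (standard error 0.0527). SUPT3H, which lies across RUNX2 on the other strand, had 371 and 379 counts under shCtl and 317 and 216 under shM2-3, and reads without strand do not separate them.

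RUNX3 (chromosome 1, 24899511 to 24965121, minus strand) was nearly silent. It had 0 counts in each shCtl library and 2 and 6 under shM2-3, and the 95% counting interval of a count of 0 reached 3.69. RUNX3 made up 0.0626% and 0.203% of the summed RUNX RPKM in the shM2-3 libraries.

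CBFB (chromosome 16, 67028984 to 67101058, plus strand) had 1160 and 1181 counts under shCtl and 2017 and 1761 under shM2-3. Its RPKM was 15.8 in each shCtl library and 22.5 and 21.7 under shM2-3. The groups did not overlap, and the log2 fold change was 0.55 (standard error 0.0557), or 1.46-fold.

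Levels per length can be set side by side within a library. In shCtl the order by RPKM was CBFB, RUNX2, RUNX1 and RUNX3, and under shM2-3 it was CBFB, RUNX1, RUNX2 and RUNX3. The RPKM ratio of RUNX1 to RUNX2 was 0.790 and 0.810 under shCtl and 1.13 and 1.14 under shM2-3. RUNX1 thus lay below RUNX2 in each shCtl library and above it in each shM2-3 library. This ratio does not depend on how libraries are scaled, but its level depends on the transcript lengths used. By counts RUNX1 was above RUNX2 in every library. The summed RPKM of the 3 RUNX genes was 22.8 and 22.1 under shCtl and 23.4 and 23.9 under shM2-3. Per unit of that sum, CBFB was at 0.695 and 0.716 under shCtl and at 0.961 and 0.906 under shM2-3.

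**Figure D2:**
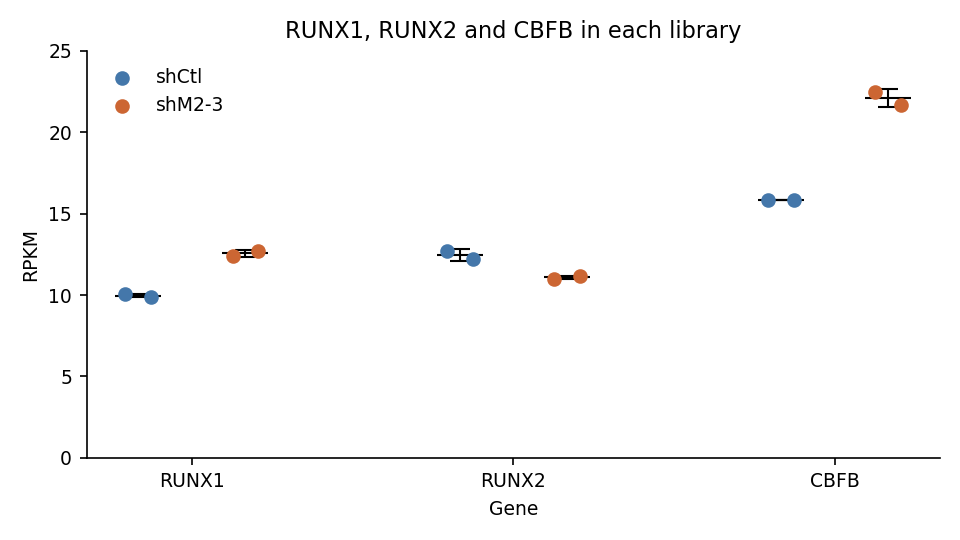
RPKM of RUNX1, RUNX2 and CBFB in the shCtl (blue) and shM2-3 (orange) libraries. Points are libraries, and black bars give the mean ± SD of 2 libraries; RUNX1 lay below RUNX2 in shCtl (9.97 against 12.5) and above it in shM2-3 (12.6 against 11.1), and CBFB was at 15.8 and 22.1.

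The remaining matrix genes were at or near the detection limit in both groups, each at an RPKM under 1 in all 4 libraries. SPP1 (chromosome 4, 87975667 to 87983532), a secreted ligand of integrins and CD44, had 11 and 30 counts under shCtl and 17 and 12 under shM2-3. The groups overlapped, and the spread between the shCtl libraries was wider than the difference between groups. The ratio of the summed SPP1 counts, scaled to library totals, shM2-3 over shCtl, was 0.625 (95% counting interval 0.375 to 1.03).

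MGP (chromosome 12, 14880864 to 14885857, minus strand) had 1 and 0 counts under shCtl and 11 and 10 under shM2-3, without overlap. The ratio of its summed and scaled counts was 18.6, with a 95% counting interval of 2.99 to 768 that spans a wide range of sizes. C12orf60 overlaps MGP on the opposite strand and had 49 and 47 counts under shCtl and 60 and 57 under shM2-3. In RPKM, MGP reached 0.223 and 0.224 under shM2-3. ALPL (chromosome 1, 21509397 to 21578410) had 0 counts in each shCtl library and 2 and 1 under shM2-3, too few for a fold.

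**Figure D3:**
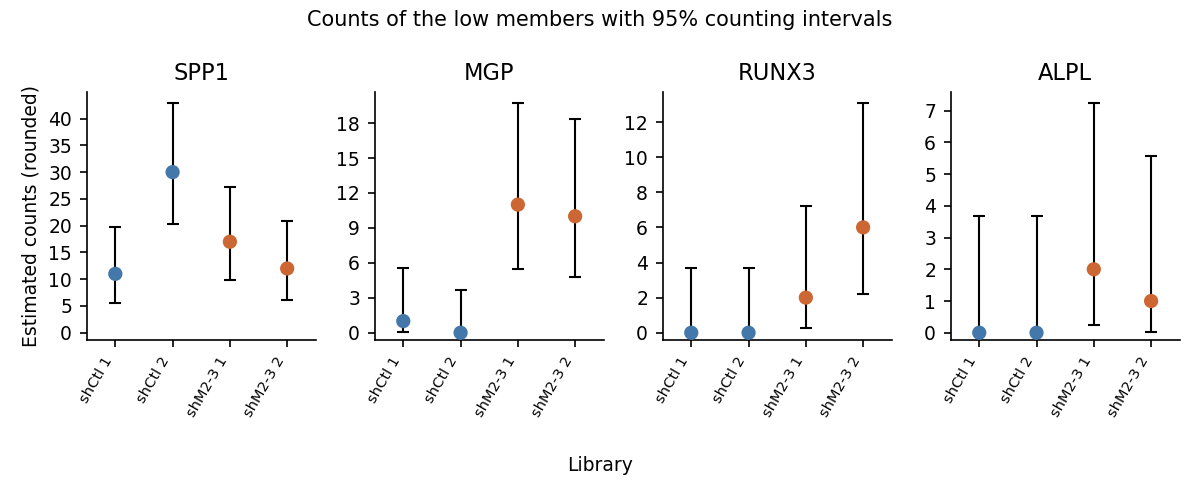
Rounded estimated counts of SPP1, MGP, RUNX3 and ALPL in each library (shCtl blue, shM2-3 orange), on separate vertical scales. Bars are exact 95% Poisson intervals, which cover counting error only; MGP is at 1 and 0 in shCtl and 11 and 10 in shM2-3, and no gene shown is above 30.

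A call needed a fold of at least 2 together with an adjusted p no greater than 0.05. By this rule 1 of the 4 members tested, BGLAP, was called higher and 0 lower, where 18.2% of the 12157 genes tested were called, 9.24% higher and 8.93% lower. The adjusted p limit alone took in 3 of the 4, and 72.7% of all genes tested. The choice of members used this contrast, so nothing is read from these counts. In RPKM, 6 of the 8 members analysed were above the 2 control libraries in each shM2-3 library, where 33.2% of all genes were. RUNX2 was lower in both, as were 36.4% of all genes, and SPP1 overlapped. Of the 6, RUNX3, ALPL and MGP rest on 11 counts or fewer per library.

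Genes around the RUNX factors and mineralization were read from 8 lists, each gene with its edgeR test. The lists were chosen with earlier results of these data known, so the share called in a list is a description and no test of it. Of 22 cofactors and regulators of RUNX proteins, 20 were tested, 2 were called higher and 1 lower, or 15% against 18.2% of all genes tested. The list's median log2 fold change was 0.32, that of all genes tested -0.0037. TLE4, a Groucho corepressor that RUNX proteins recruit, had an RPKM of 2.50 and 2.82 under shCtl and 14.5 and 14.6 under shM2-3, a 5.72-fold rise. HIPK2, a nuclear kinase, rose 2.99-fold. RUNX1T1 (ETO), the corepressor fused to RUNX1 in some leukaemias, had 606 and 495 counts under shCtl and 64 and 60 under shM2-3, a 9.79-fold fall, and passed the limit for testing through its shCtl values alone. Adjusted p of these 3 ranged from 1.46e-12 to 4.37e-10 (edgeR quasi-likelihood F test, Benjamini-Hochberg). TLE5, the most abundant of the list, had a log2 fold change of 0.26.

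Among 17 transcription factors of the osteoblast lineage, 12 were tested and 2 were called higher, or 16.7% against 18.2% of all genes tested, with a median of 0.25. SOX9, the factor of cartilage cells, rose from an RPKM of 12.1 and 13.1 to 69.0 and 71.6, or 5.83-fold. MEF2C rose 4.52-fold, from 1.19 and 1.22 to 5.21 and 5.22. Adjusted p were 5.76e-14 for SOX9 and 3.1e-11 for MEF2C (edgeR quasi-likelihood F test, Benjamini-Hochberg). ATF4, the most abundant, had a log2 fold change of -0.32. SP7 (osterix), which osteoblasts need downstream of RUNX2, had 2 and 3 counts under shCtl and 0 in each shM2-3 library.

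The list of bone matrix and osteoblast products held 23 genes, of which 19 were analysed and 7 were tested. Of these, 5 were called higher and 1 lower (85.7%, against 18.2% of all genes tested), with a median of 1.67. COL1A1, a chain of type I collagen, rose from an RPKM of 327 and 338 to 843 in each shM2-3 library, or 2.65-fold. Its partner chain COL1A2 had 43 and 44 counts under shCtl and 60 and 22 under shM2-3 and was under the limit for testing. SERPINH1, the collagen chaperone, rose 3.19-fold, MMP14, a membrane-bound collagenase, rose 4.52-fold, and BGN (biglycan) rose 3.52-fold. TNFRSF11B (osteoprotegerin), the decoy receptor that restrains bone resorption, had 7 and 5 counts under shCtl and 187 and 152 under shM2-3. It rose 25.1-fold, and passed the limit for testing through its shM2-3 values alone, and it is part of the share and median above. On the log2 scale this is 4.65, with 4.62 when the limit was dropped and 1.82 with limma on log2(RPKM + 1).

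LOX, the enzyme that crosslinks collagen, fell 3.98-fold, from an RPKM of 361 and 375 to 87.8 and 88.9. Adjusted p of the 6 called genes ranged from 2.14e-14 to 3.69e-08 (edgeR quasi-likelihood F test, Benjamini-Hochberg). The seventh, SPARC (osteonectin), was higher with a log2 fold change of 0.85 and under the limit of 2-fold. The other genes of the list that were analysed, COL1A2 among them, were under the limit for testing. DCN, OGN, SPARCL1, COL10A1, COL11A1 and CDH11 had 6 counts or fewer in every library. DMP1 had 2 counts and IFITM5 1 count under shM2-3 replicate 2 and 0 in the other 3 libraries. SOST (sclerostin) had 0 counts in each shCtl library and 6 and 8 under shM2-3, and MMP13, a collagenase, had 4 and 5 against 40 and 65. PTH1R, the parathyroid hormone receptor, had 13 and 11 counts under shCtl and 0 in each shM2-3 library.

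In the list of phosphate, pyrophosphate and mineralization genes, 10 of 20 were tested, with a median of 0.64. Of these, 4 (40%) were called higher and 0 lower, against 18.2% of all genes tested. By the adjusted p limit alone, without the 2-fold limit, 6 of the 10 were higher and 3 lower. Of all genes tested, 36.3% were higher and 36.4% lower by that limit. SLC20A1 and SLC20A2 import phosphate. SLC20A1 rose from an RPKM of 37.1 and 37.8 to 163 and 164, or 4.56-fold, and SLC20A2 rose 2.24-fold. ANKH, which is needed for pyrophosphate outside cells, rose from 4.09 and 4.64 to 32.4 and 32.95, or 7.83-fold. FAM20C, the kinase that phosphorylates secreted proteins such as osteopontin, rose 4.39-fold, from 41.2 and 42.3 to 174 and 176. Adjusted p ranged from 2.7e-14 to 1.85e-07 (edgeR quasi-likelihood F test, Benjamini-Hochberg). NT5E, the most abundant of the list under shCtl, makes adenosine from AMP and had a log2 fold change of -0.15. Under shM2-3 its RPKM of 152 and 148 lay below those of FAM20C and SLC20A1. ENPP1, which makes pyrophosphate, was at -0.43.

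**Figure D4:**
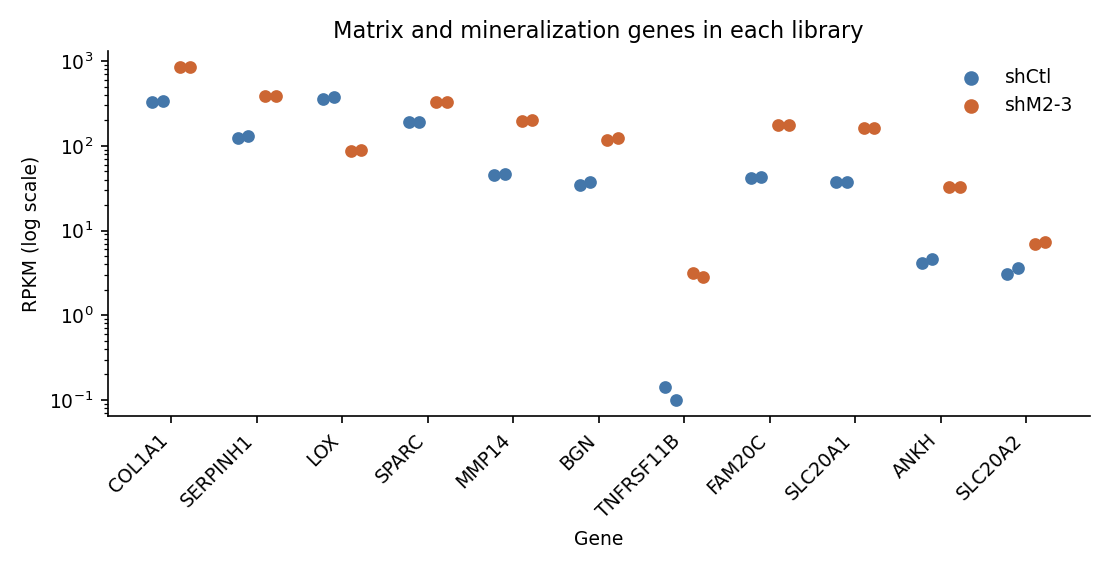
RPKM on a log scale of 7 bone matrix and osteoblast genes (COL1A1 to TNFRSF11B) and 4 mineralization genes (FAM20C to SLC20A2) in the shCtl (blue) and shM2-3 (orange) libraries, each point 1 library. LOX alone of the 11 lies lower in shM2-3 (87.8 and 88.9 against 361 and 375), and SPARC is the 1 gene shown that was not called.

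Osteocalcin and MGP become active only after carboxylation, so the vitamin K cycle and other Gla proteins were read as a list of 18. Of these, 9 were tested, with a median of 0.03. Called higher were 2 and lower 2 (44.4% in all, against 18.2% of all genes tested). GGCX, the carboxylase, had a log2 fold change of -0.51 and VKORC1, which recycles vitamin K, of -0.69, both under 2-fold. AIFM2, a second vitamin K reductase, fell 2.23-fold, and NQO1, a quinone reductase, rose 2.69-fold. Of the Gla proteins, GAS6 fell 2.26-fold and PROS1 (protein S) rose 2.13-fold. Adjusted p of the 4 called genes ranged from 1.19e-11 to 3.29e-06 (edgeR quasi-likelihood F test, Benjamini-Hochberg).

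Of 10 receptor genes of osteopontin and bone sialoprotein, 7 were tested, with a median of 0.99. Among the 7, 2 (28.6%) were called higher and 0 lower, against 18.2% of all genes tested. The other 3, ITGA8, ITGA9 and ITGB6, had 21 counts or fewer in every library. ITGAV rose 3.93-fold, from an RPKM of 16.8 and 15.9 to 62.5 and 60.2. ITGA5 rose 6.23-fold, from 30.9 and 33.5 to 190 and 193. ITGB1, the most abundant of the list, had a log2 fold change of 0.78 and ITGB3, the partner of ITGAV in the classical osteopontin receptor, of 0.99. ITGA4, at 0.9997, narrowly missed the limit of 2-fold, and DESeq2 called 3 genes of the list in place of 2. CD44 stood at -0.19. Adjusted p were 1.74e-13 for ITGAV and 1.56e-14 for ITGA5 (edgeR quasi-likelihood F test, Benjamini-Hochberg).

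BMPs act upstream of RUNX2 in bone. Of 22 genes of the BMP pathway, 17 were tested, with a median of 0.31. Among the 17, 5 were called higher and 4 lower (52.9%, against 18.2% of all genes tested). The secreted antagonists NOG and FST fell. NOG (noggin) had 143 and 140 counts under shCtl and 26 and 25 under shM2-3, a 6.10-fold fall, and FST (follistatin) fell 6.58-fold. The ligand BMP6 also fell, from 211 counts in each shCtl library to 6 and 15. The receptor BMPR2 rose 2.32-fold. The targets ID1 and ID3 rose 2.10-fold and 2.97-fold, and the inhibitory SMAD6 and SMAD7 rose 2.11-fold and 3.5998-fold. SMAD9 fell 2.30-fold. NOG, BMP6 and SMAD9 passed the limit for testing through their shCtl values alone. Adjusted p of the 9 ranged from 5.63e-12 to 2.18e-05 (edgeR quasi-likelihood F test, Benjamini-Hochberg).

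Vitamin D activates BGLAP in bone through VDR and its partner RXRA. Of 10 genes of this pathway, 5 were tested, with a median of 0.05. Among the 5, 2 were called higher and 1 lower (60%, against 18.2% of all genes tested). VDR rose 2.53-fold, from an RPKM of 2.07 and 2.22 to 5.53 and 4.80, and RXRA rose 2.26-fold. CYP27B1, which makes active vitamin D, fell 3.14-fold. RXRB, the most abundant, had a log2 fold change of -0.02. Among targets of the pathway under the limit for testing, CYP24A1 had 10 counts or fewer in every library. CD14 had 3 and 4 counts under shCtl and 42 and 37 under shM2-3, and TRPV6 had 1 and 3 against 9 and 5. S100G went the other way, with 1 and 4 counts under shCtl and 0 in each shM2-3 library. Adjusted p of the 3 called genes ranged from 6.25e-08 to 3.12e-06 (edgeR quasi-likelihood F test, Benjamini-Hochberg).

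**Figure D5:**
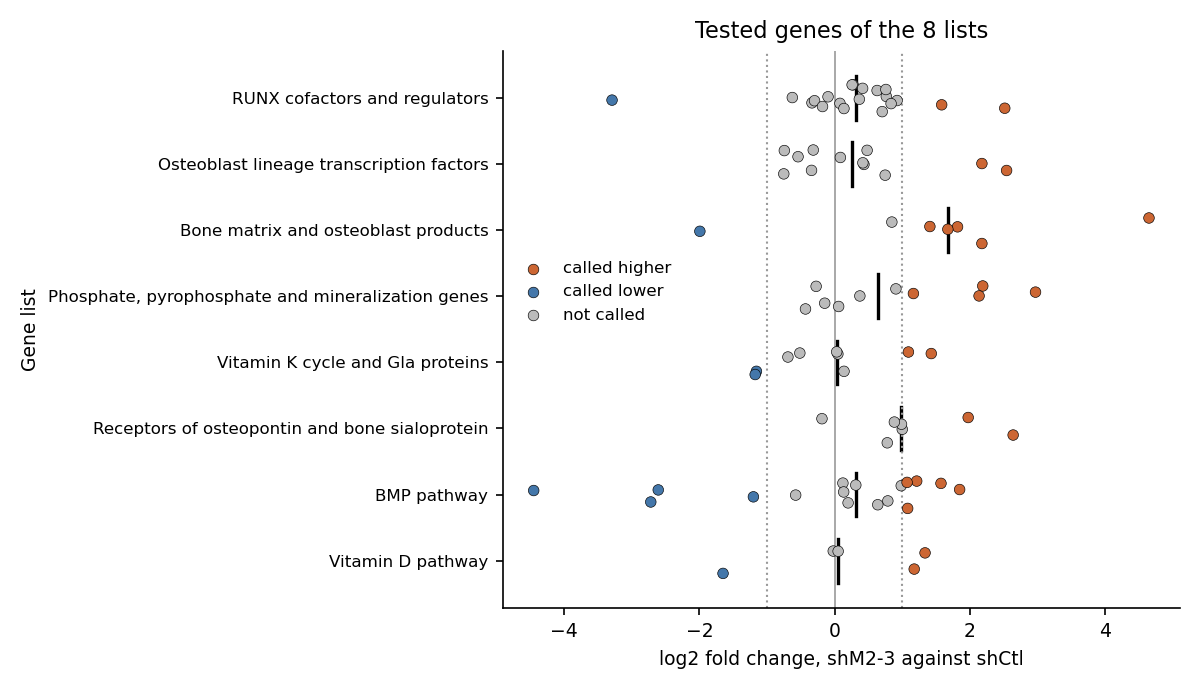
log2 fold change (shM2-3 against shCtl) of each tested gene of the 8 lists, 1 point per gene, with called genes in orange (higher) or blue (lower), the others in grey, dotted lines at a 2-fold change and a black tick at each list's median. Medians run from 0.03 for the vitamin K list to 1.67 for bone matrix and osteoblast products.

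Markers of leukocytes, of fibroblasts and of epithelial or ovarian carcinoma cells were read beside these values, all in cultures of the ES-2 line. Of 7 leukocyte genes, 4 were analysed (summed RPKM 57.3 and 57.0 under shCtl, 39.7 and 41.0 under shM2-3) and 2 passed the limit for testing. Nearly all of this sum was CD68, at an RPKM of 57.3 and 56.9 under shCtl and 37.8 and 39.0 under shM2-3. CSF1R, a growth factor receptor of macrophages, had 2 and 8 counts under shCtl and 230 and 223 under shM2-3, and CD68 had a log2 fold change of -0.51. PTPRC, the pan-leukocyte marker, had 3 and 0 counts under shCtl and 2 in each shM2-3 library. Of 6 fibroblast genes, 3 were tested (summed RPKM 40.8 and 42.5 under shCtl, 48.3 and 47.9 under shM2-3): PDGFRA rose 3.46-fold and PDGFRB 2.35-fold, THY1 was at -0.56, and COL3A1, LUM and POSTN had 10 counts or fewer in every library. Of 8 epithelial and ovarian carcinoma markers, 7 were analysed (summed RPKM 637 and 637 under shCtl, 313 and 316 under shM2-3): KRT7 fell 2.39-fold and KRT8 2.34-fold, KRT18 was at -0.68, and EPCAM, PAX8 and WT1 had 34 counts or fewer in every library. CSF1R and PDGFRB passed the limit for testing through their shM2-3 values alone. The part of any of these cell types in the values of BGLAP and MGP was not tested.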

How the data were processed

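Per the submitters' processing notes and the study's methods, paired reads of 150 bases from libraries without strand were aligned to hg38 (HISAT2 2.0.4), reads of ambiguous or poor mapping were dropped, and RefSeq transcripts were quantified in Partek 7.18. The estimated counts deposited by the authors carry no normalization and are often fractional. The RPKM values deposited beside them were scaled by the authors for transcript length and library size. The labels give 96 h to harvest, and the methods state a shorter time.

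Rounded counts entered edgeR 4.0.16 (R 4.3.3) for a quasi-likelihood test with TMM scaling and no block, over the 12157 genes whose RPKM passed 1 in any library. Calls needed at least a 2-fold difference and a Benjamini-Hochberg adjusted p not over 0.05. The standard error is the log2 fold change divided by the square root of F. The fit was checked on simulated counts. Replicates are labelled biological. Counting intervals cover counting error only. DESeq2 1.42.0 and limma 3.58.1 served as alternatives.

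The members and lists were chosen with earlier results of these data known. Named are the 9 members, MAML2, neighbours of BGLAP within 50 kb, and, per list, called genes (at most 5 in each direction) and the most abundant gene, and the 5 genes of highest shM2-3 RPKM with the pattern of BGLAP. SPARC, GGCX, ENPP1, COL1A2, COL10A1, COL11A1, SPARCL1, DCN, OGN, CDH11, SOST, MMP13, PTH1R, SP7, DMP1, IFITM5, CYP24A1, CD14, TRPV6, S100G, ITGA4, ITGA8, ITGA9, ITGB3, ITGB6, CD44, SUPT3H, C12orf60 and markers that were not called were named after values had been seen. The values of 1 marker gene are not reported here. Positions come from GENCODE release 44 and promoter windows from RefSeq (GRCh38.p14).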

Additional observations from a re-analysis of the deposited data

How the results depend on the processing

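With 2 libraries per group, members under about 30 counts carry too few reads for a size. The alternatives were DESeq2, total counts, no RPKM filter, filterByExpr, limma on RPKM with pseudocounts of 0.1 or 1, a fold limit of 1.5, blocking on replicate number, and omission of each library. Across them RUNX1 lay between 0.31 and 0.42, RUNX2 between -0.17 and -0.07 and CBFB between 0.46 and 0.57 on the log2 scale. BGLAP ranged from 2.84 to 9.37, and was 1.78 when summed with PMF1-BGLAP. Genes called numbered 2209 (1123 higher, 1086 lower), 1320 (596 higher) with limma on log2(RPKM + 1), and 4598 (2296 higher, 2302 lower) at a fold limit of 1.5. That limit gave 53 called genes of the 8 lists (40 higher) in place of 33. Without the RPKM filter 2 members passed the call limits, BGLAP, whose counts chose the set, and MGP, at 1 and 0 against 11 and 10 counts; this is a description and no test of them. PMF1 lay between -0.0042 (without shCtl replicate 1) and 0.16 (without shCtl replicate 2). With limma on log2(RPKM + 1), SLC20A2, AIFM2, PROS1, SMAD9, SMAD6, ID1, VDR and RXRA fell under 2-fold; SMAD6 also did so with log2(RPKM + 0.1). Leaving out a library gave 2187 to 2231 calls. With the replicate block 2202 genes were called; deviations of same-numbered libraries correlated at -0.0285, so the numbers were not read as a pairing.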
